A study of Mus musculus with 10 samples.

Results

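The wild-type cochlea at 9 months was profiled on 5 of the 10 arrays of a study of mice with and without a mutation of the mitochondrial DNA polymerase Polg. All 5 arrays carried total RNA labelled as cochlea from male Polg+/+ mice aged 9 months, raised in a specific pathogen-free facility on a 12:12 light cycle. The other 5 arrays, from D257A mice, were not used here. The labels number the wild-type samples 1 to 5 and do not say whether each was 1 animal or a pool, and according to the design text the study made no replicates, so part of the spread between arrays may be technical. After the control probe sets were left out, 45037 of 45101 probe sets remained, of which 34945 were assigned to 1 gene. Each gene was given the values of 1 probe set, the one with the highest mean log2(signal + 16) over these 5 arrays, which gave 18193 genes.

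The cochlea is the coiled hearing organ of the inner ear. Sensory hair cells convert sound into electrical signals that spiral ganglion neurons carry to the brain, while the stria vascularis and the fibrocytes of the spiral ligament maintain the potassium-rich fluid in which the hair bundles stand. The organ lies within a bony capsule in the temporal bone, next to the middle ear cavity, its muscles and mucosa, and close to the cerebellum. Hair cells make up a small share of the tissue, so RNA of the whole organ is mostly that of connective tissue, nerve, epithelium, bone and blood cells.

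Signal is the brightness of a probe set in linear units, and it depends on the probes as well as on the amount of transcript, so the ranks that follow are ranks of signal and not of transcript number. The median signal over all probe sets was 551.7 to 613.3 on the 5 arrays. Across genes, log2 signals of pairs of arrays correlated at r = 0.933 to 0.964. Replicate 3 had the lowest mean correlation with the other arrays, at 0.938, and replicate 2 the highest, at 0.955. Genes are not independent replicates, and these coefficients describe the arrays only. Of the 100 brightest probe sets, 57 were assigned to 1 gene, 32 to several genes and 11 had no gene name here, so the ranking leaves out transcripts whose probe sets match several genes, among them some of the haemoglobins.

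The 4 genes taken as markers of the cochlea were bright on every array. Coch encodes cochlin, a matrix protein secreted by fibrocytes of the spiral ligament and limbus. Its signals were 65511, 73303, 70922, 83744 and 77969 on replicates 1 to 5, a mean of 74289.9 ± 6934 (SD, n = 5), and it ranked 11 of 18193 genes. Otos encodes otospiralin, a small secreted protein of the same fibrocytes, and its signals were 40918, 47510.1, 52247, 56958 and 51760.2. Gjb2 encodes connexin 26, a gap junction subunit of the cochlear supporting cells and fibrocytes, and measured 20833, 27260.1, 24282, 34999 and 28565. In each of these 3 genes replicate 1 was the lowest array and replicate 4 the highest. Mbp, the myelin basic protein gene, ranked 17, with signals of 62778, 63400.3, 85889, 65423 and 71744, and here replicate 3 was the highest array. Not all dimmer probe sets of Mbp shared this. Otos ranked 52 and Gjb2 ranked 224, so the 4 markers lay within the brightest 5% of genes, a class that holds 910 genes.

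The promoters of Coch and Otos are shown as the start regions of the brightest genes that mark the cochlea itself. The windows are from RefSeq on GRCm38.p6 and run 5′ to 3′ from 250 bases before the start of the gene to 50 bases after it. Capitals mark TATAAA on the gene's strand where it lies 40 to 16 bases before the start, and CCAAT, or its reverse complement ATTGG, anywhere in the window. Neither window held either motif, so both are in lower case throughout.
Coch, chr12:51593091-51593390, plus strand: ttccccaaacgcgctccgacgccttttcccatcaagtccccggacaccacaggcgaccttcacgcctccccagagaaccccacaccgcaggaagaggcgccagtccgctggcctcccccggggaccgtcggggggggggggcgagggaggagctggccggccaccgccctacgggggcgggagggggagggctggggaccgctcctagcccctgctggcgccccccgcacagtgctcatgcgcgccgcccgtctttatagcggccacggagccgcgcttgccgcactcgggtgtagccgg
Otos, chr1:92648792-92649091, minus strand: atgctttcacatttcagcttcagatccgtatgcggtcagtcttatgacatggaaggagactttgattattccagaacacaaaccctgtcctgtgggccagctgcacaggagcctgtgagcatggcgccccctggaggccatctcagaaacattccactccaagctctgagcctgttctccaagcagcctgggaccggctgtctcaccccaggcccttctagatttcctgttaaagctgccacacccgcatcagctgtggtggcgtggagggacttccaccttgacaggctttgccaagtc

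Many of the brightest transcripts belonged to functions that every cell shares. The 100 brightest genes held 10.3% ± 0.373 (SD, n = 5) of the summed gene signal, and 55 of them were among the 100 brightest on each of the 5 arrays taken singly. Ribosomal protein genes supplied 22 of the 100, nuclear genes for subunits of oxidative phosphorylation 10, cytoskeletal genes 5, and translation factors 3. The brightest of the 18193 genes was Ptgds, which encodes the prostaglandin D synthase secreted by meninges and other barrier tissues. It measured 99431, 101861, 106843, 118609 and 108676, a mean of 107084 ± 7437 (SD, n = 5), and all 5 arrays lay within 1.19-fold of each other. Apod, which encodes the lipid carrier apolipoprotein D, was as steady, at 90357, 87053, 97552, 96085 and 96584. The second probe set of Apod was dimmer and less steady, from 9637 on replicate 2 to 17522.5 on replicate 3 (1.82-fold). Whether the highest signals still follow the amount of transcript was not tested. Tpt1, the gene of the growth-related protein TCTP, measured 91141 to 110764, and Eef1a1, the elongation factor that brings aminoacyl-tRNA to the ribosome, measured 62850.2 to 95078.

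**Figure D1:**
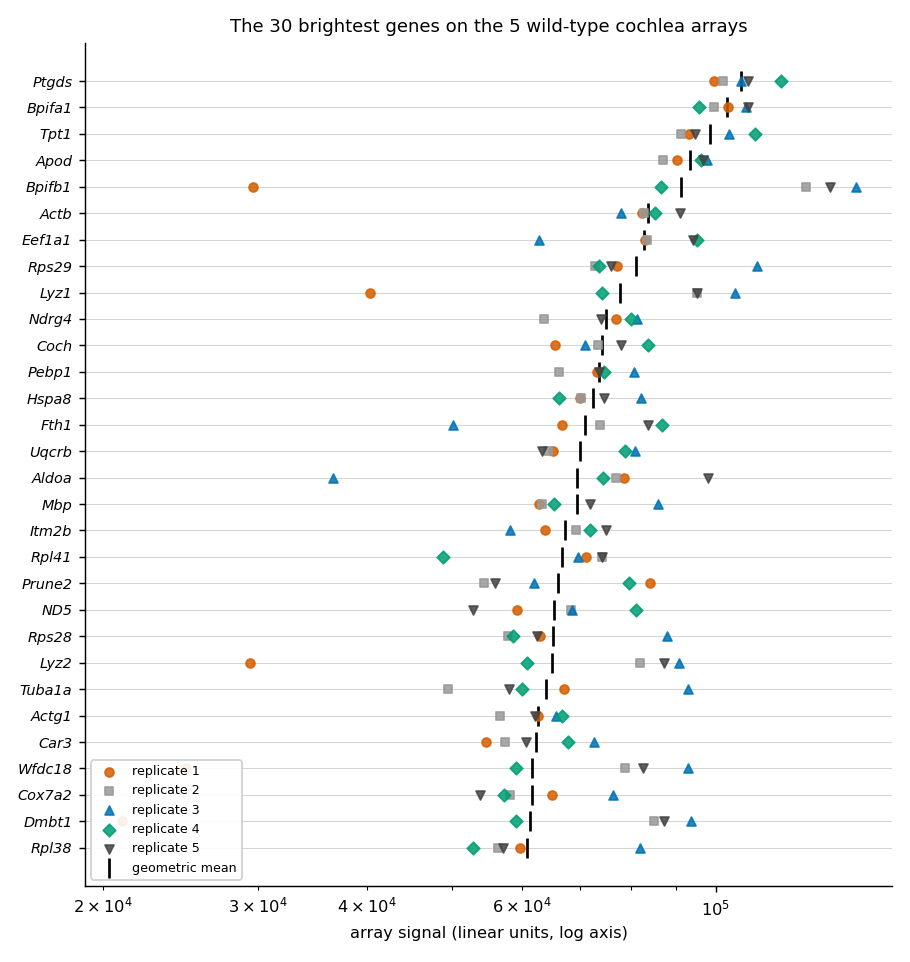
Signals of the 30 brightest genes on the 5 wild-type arrays, in linear units on a log axis, with 1 marker per array and a bar at the geometric mean. The 5 markers lie close together for most genes, while replicate 1 stands to the left for Bpifb1 (29623), Lyz1 (40313) and Dmbt1 (20997).

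Of 47 measured ribosomal protein genes, 34 lay in the brightest 5% of genes. The median signal of the list was 36204, against 1185 over all genes. Rps29, a protein of the small subunit, measured 77043, 72865, 111384, 73558 and 75819. Its replicate 3 stood above the other 4 arrays, which lay close together. Rpl41, a very short protein of the large subunit, measured 70991, 74094, 69629.6, 48834 and 74193, with replicate 4 below the rest. In oxidative phosphorylation, 65 of 82 measured nuclear subunit genes were in the brightest 5%, with a median of 17517, and none was among the 5% most variable of the 9096 genes that were brighter than the median gene. Replicate 1 was the highest array for 37 of the 75 subunit genes among those 9096, against 18% of the 9096, but never by over 2-fold beyond the next array. Uqcrb, of complex III, ranked 15 at 63395 to 80767. Cox7a2 and Cox6a1, of cytochrome c oxidase, measured 53751 to 76302 and 53720.0 to 76561. ND5, a complex I subunit encoded by the mitochondrial genome, measured 59318, 68303, 68558, 81053 and 52862, with no array far from the rest. Polg, which is wild-type in these mice, encodes the polymerase that copies mitochondrial DNA. It had a modest signal of 2887, 2895, 1973, 2980.4 and 3224 and ranked 4993, with replicate 3 lowest. Its dimmer probe sets did not share this. The second was lowest on replicate 1, at 683.5 against 826.8 on replicate 3, and the third was highest on replicate 3, at 625.1.

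Genes of the potassium-handling tissues followed the markers in brightness. All 10 genes of the fibrocyte list were in the brighter 9096 genes, and 6 of 10 were in the brightest 5%. Gjb6, which encodes connexin 30, the partner of connexin 26, measured 27888, 30371, 37491, 42127 and 32083. Slc12a2, the sodium-potassium-chloride cotransporter that loads potassium into strial marginal cells, measured 26847, 30315, 31787, 44635 and 26475. Replicate 4 was the highest array in both, as in 9 of the 10 genes of the list, against 12% of the 9096 brighter genes. A list score, the mean over the brighter members of each gene's log2 signal minus its 5-array mean, was -0.25, -0.04, -0.05, 0.36 and -0.03 for the fibrocyte list on replicates 1 to 5. Of the stria vascularis list, 11 of 16 measured genes were in the brighter 9096 and 3 in the brightest 5%. Dct, a melanin-synthesis enzyme of the pigmented intermediate cells, measured 13772, 14080.1, 18099, 18974 and 13757. Slc26a4, which encodes the anion exchanger pendrin, measured 7569, 8166, 9792, 11455 and 7555. Both were lower on replicates 1, 2 and 5 than on replicates 3 and 4.

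Hair cell genes were dim in comparison. Of 19 measured members 6 were in the brighter 9096 genes, and the median signal of the list was 606. The brightest, Calb2, encodes the calcium buffer calretinin and measured 30612, 35781, 21083, 38293 and 43479.6, but calretinin is also made by neurons. Atp2b2, the calcium pump of the hair bundle, measured 5415, 7812, 5589.8, 6965 and 10788. It is also made by Purkinje cells of the cerebellum, and replicate 5 was its highest array. Myo6, an unconventional myosin of the hair cell's apical surface, measured 2681, 2655, 2571, 3399.6 and 2781, with the 4 arrays other than replicate 4 close together. Pou4f3, a transcription factor needed for hair cell survival, measured 215.6 to 403.4, and Slc26a5, which encodes the outer hair cell motor prestin, measured 27.8 to 102.9. Both signals were below the median over genes. Of the list of tectorial membrane and supporting cell genes, 5 of 9 were in the brighter 9096. Otog, which encodes a glycoprotein of the acellular membranes, was the brightest at 4905, 5696, 6292, 6512 and 7038, and Sox2, a transcription factor of supporting cells, measured 2113 to 4191.

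Nerve and myelin transcripts were among the brightest of the tissue. Of 20 neuronal genes 19 were in the brighter 9096 and 10 in the brightest 5%. Nefl, the light neurofilament subunit of large axons, measured 74609.7, 45664, 48726, 57046 and 49936, with replicate 1 highest. Snap25, a protein of synaptic vesicle fusion, measured 38269, 36150.1, 56378, 37119.8 and 32642, with replicate 3 highest. Replicate 1 was highest in 10 of the 19 brighter neuronal genes, against 18% of the 9096. In 4 of the 19 replicate 3 was lowest by over 2-fold, against 2.58%, and 5 of the 20 were in the most variable 5%. S100b, a calcium-binding protein of glia, measured 40976, 40556, 73253, 47109 and 49889, and was also highest on replicate 3. Its second probe set was highest on replicate 1, at 20826, 18934, 20424, 18591 and 17662. Of the astroglial and satellite glial list, 7 of 10 were in the most variable 5% and 6 were lowest on replicate 1, against 20.1% of the 9096 genes. Replicate 3 was highest in 5 of the 10, against 33.6%. Of the Schwann cell and myelin list 13 of 17 were in the brighter 9096, 4 in the brightest 5%, and none in the 5% most variable. Pmp22, a protein of compact peripheral myelin, measured 51851, 40585, 44645, 45431 and 39244. Cnp, an enzyme of myelinating glia, measured 25409, 16333, 33192, 26787 and 24349, with replicate 2 lowest and replicate 3 highest. Its other probe sets had replicate 3 lowest. The second measured 10295, 10799, 6117, 12422 and 12498, and the third 5211, 5198, 1091, 5921 and 8575.

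Genes that mark neighbouring tissues, and separately those of the connective tissue matrix, also ranked high. Myh1, the fast IIx myosin heavy chain of skeletal muscle, ranked 45, and 18 of 32 measured muscle genes lay in the brightest 5%. Bpifa1, an airway and middle ear mucosal defence protein, ranked 2, at 103163, 99610.2, 108073, 95721 and 108835. Of 24 measured mucosal and glandular genes 6 were in the 100 brightest. Of the fat-cell genes, 3 were among the 100 brightest. Car3, a carbonic anhydrase abundant in fat and slow muscle, measured 54614, 57485, 72534, 67761 and 60707, and Scd1, a fatty acid desaturase, measured 37340.2, 51758, 43101, 41627 and 35171. In the connective tissue matrix list 8 of 21 were in the brightest 5%. Dcn, the collagen-binding proteoglycan decorin, measured 47867, 41528, 35384, 42484 and 46218. Mgp, the calcification inhibitor matrix Gla protein, measured 31306, 34038, 34561, 32762 and 38877. The median SD of log2 signal in this list was 0.14, against 0.26 over the brighter 9096 genes, and no member was in the most variable 5%. Choroid plexus markers were modest: Ttr, which encodes the carrier transthyretin, measured 12737, 6372, 8347, 6959 and 8151, and none of the 9 measured was in the brightest 5%.

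Most genes varied little between the 5 arrays. The ratio of the highest to the lowest of the 5 values, on signal + 16, is called the span. Its median was 1.56-fold over the 9096 brighter genes, which started at a geometric mean signal of 1186, and 1.39-fold over the 100 brightest. A span over 2-fold was found for 1733 of 9096 (19.1%) and for 11 of the 100 brightest. Over 4-fold spans were found for 173 genes (1.9%), and 148 of those were genes on which replicate 1 or replicate 3 alone was lowest by over 2-fold. Without replicate 1 the count was 97, without replicate 3 it was 62, and without both it was 8.

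**Figure D2:**
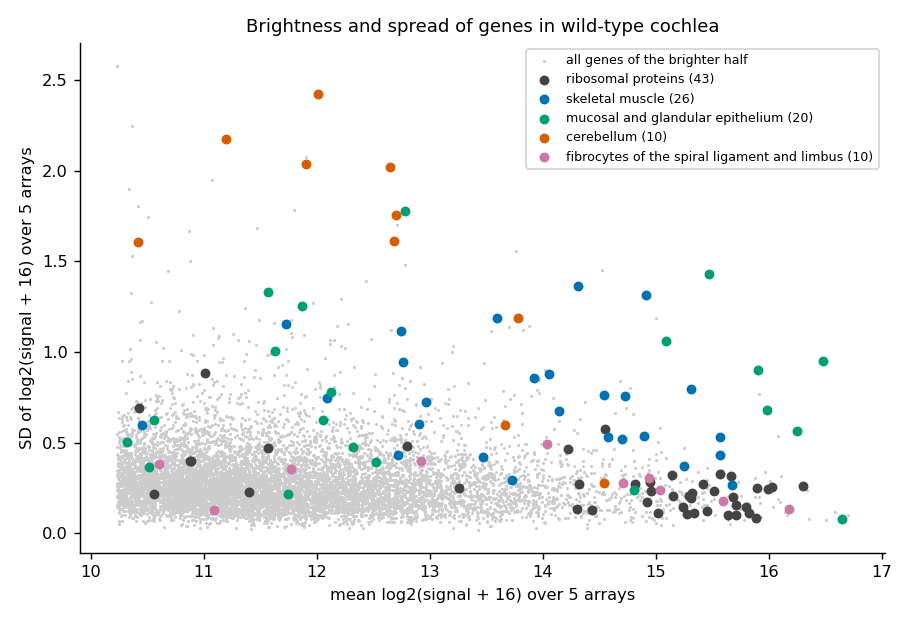
Mean log2(signal + 16) over the 5 arrays (horizontal) against its SD (vertical) for each of the 9096 brighter genes, with 5 lists in colour. Cerebellar, muscle and mucosal genes lie above the bulk of the genes (median SD 0.26), while the 10 fibrocyte genes lie near it (list median 0.29).

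For each gene it was asked whether 1 array lay over 2-fold beyond the nearest of the other 4, on signal + 16. Replicate 3 was the lowest array in this sense for 235 genes (2.58% of the 9096) and replicate 1 for 65 (0.715%). The numbers were 1 (0.011%) for replicate 2, 8 (0.088%) for replicate 4 and 5 (0.055%) for replicate 5. High values of a single array were rarer: 30 genes (0.33%) on replicate 3, 7 (0.077%) on replicate 1, 3 (0.033%) on replicate 4 and none on replicates 2 and 5. Of the 100 most variable genes, 46 were lowest on replicate 1 and 49 on replicate 3. In the 30 most variable, replicate 1 was lowest in 24. The single-array rule was chosen after the values had been seen. The gene lists used below were chosen with earlier results of these data known. Their counts, set beside the share over all genes, describe these arrays and are no test.

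**Figure D3:**
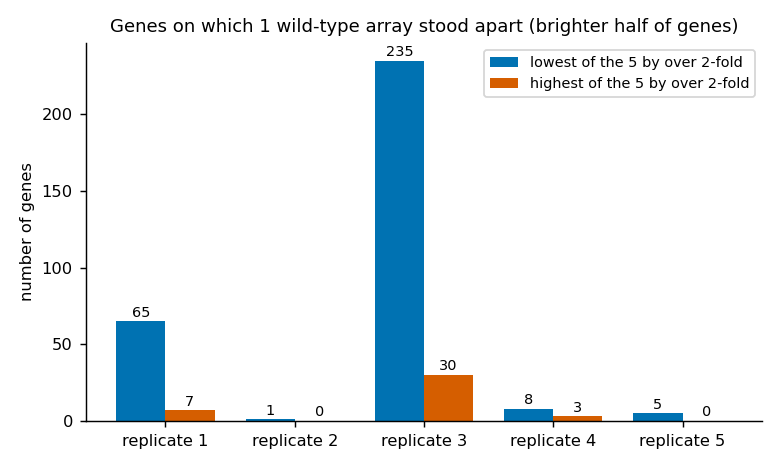
Number of genes, of the 9096 brighter ones, for which 1 array was the lowest (blue) or the highest (orange) of the 5 by over 2-fold, per replicate. Replicate 3 has the tallest low bar (235 genes), followed by replicate 1 (65), and the high bars reach 30 at most.

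Among the lists, replicate 1 differed most in that of cerebellar neurons. Cerebellar granule and Purkinje cell genes were 8 of the 12 measured members among the 5% most variable genes, and 9 of the 10 brighter ones were lowest on replicate 1, against 20.1% of the 9096 genes. In 8 of them replicate 1 was lowest by over 2-fold, against 0.715%. Gabra6, the GABA-A receptor subunit of granule cells, measured 199.7, 12712, 8343, 5179.8 and 9979. Pcp2, a protein of Purkinje cells, measured 563.6, 14524, 13100.3, 5884 and 16561. Neurod1, a transcription factor of granule neurons, measured 312.3, 8318, 8641, 3949.9 and 8708. In these 3 genes replicate 1 lay far below the other arrays, and replicate 4 was the lowest of the others. Cbln3, a synaptic organiser precursor of granule cells, measured 155.7, 7089, 3999, 2643 and 5497. Slc1a6, a glutamate transporter of Purkinje cells that is not in the list, measured 48.5, 3799, 1002, 1562 and 6372, and its span of 99-fold was the largest among the 9096 genes. Detection calls were not used, so it is not known whether a signal this low exceeded background, and the size of the span is uncertain. Pcp4, which is made by Purkinje cells and by other neurons, did not share the pattern, at 21785, 26355, 31918, 20776 and 20161.

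The summed signal of the 12 measured cerebellar genes was 36364, 143497, 130706, 77874 and 137137 on replicates 1 to 5. No member was at 0 on replicate 1: Calb1, the calcium buffer calbindin, still measured 6827 there and Zic1, a granule cell transcription factor, 3431. Of the 6 members low on replicate 1 by over 2-fold that had a second probe set in the brighter range, 6 were low on replicate 1 by over 2-fold in that set too. For all genes with a second probe set, 0.497% were. In Gabra6 the second probe set measured 64.8, 3779.5, 1494, 1724 and 4278. In whole-tissue RNA, fewer cells of a type and less RNA per cell cannot be told apart. The promoter of Gabra6, from RefSeq on GRCm38.p6 as above, is given as that of the gene with the largest span (59-fold) among the list's 12 measured members. It held no TATAAA at that distance, and the capitals are its 1 CCAAT motif.
Gabra6, chr11:42321023-42321322, minus strand: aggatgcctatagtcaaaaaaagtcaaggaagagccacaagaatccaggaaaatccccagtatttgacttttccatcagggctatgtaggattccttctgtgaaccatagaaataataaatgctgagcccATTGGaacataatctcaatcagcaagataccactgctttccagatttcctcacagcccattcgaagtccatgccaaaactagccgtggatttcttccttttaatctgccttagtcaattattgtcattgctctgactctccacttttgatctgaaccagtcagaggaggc

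Mucosal genes were also low on replicate 1. Of the 20 brighter members, 13 were lowest on replicate 1 (20.1% of the 9096 genes were) and 10 of these by over 2-fold (0.715%). Bpifb1, a secreted defence protein of airway epithelium, measured 29623, 126793, 144369, 86456 and 134770.5. Lipf, a lipase of secretory glands, measured 8035, 74561, 85891, 47958 and 77897. Tff2, a mucus-associated trefoil peptide, measured 890.1, 14296, 15229, 5331 and 16211. Replicate 1 was lowest in all 3, and replicate 4 was the next lowest. Dmbt1, a scavenger receptor of mucosal secretions, measured 20997, 85058, 93689.9, 59213 and 87210.5, and Lyz1, the lysozyme of mucosal glands, 40313, 95217, 105259, 74223 and 95143. Ltf, which encodes lactoferrin of glands and neutrophils, measured 10409, 59174, 37739.6, 32904 and 66639.7. Bpifa1 did not share this spread: its 5 signals lay within 1.14-fold. Its 103163 on replicate 1 was the highest signal of any probe set on that array. Whether signals this high still follow the amount of transcript was not tested. The summed signal of the 24 measured mucosal genes was 296085, 718481, 757427, 523896 and 759059. The promoter of Bpifa1 is shown as that of the brightest member, and it carries a TATAAA that begins 29 bases before the start and 2 CCAAT motifs.
Bpifa1, chr2:154142630-154142929, plus strand: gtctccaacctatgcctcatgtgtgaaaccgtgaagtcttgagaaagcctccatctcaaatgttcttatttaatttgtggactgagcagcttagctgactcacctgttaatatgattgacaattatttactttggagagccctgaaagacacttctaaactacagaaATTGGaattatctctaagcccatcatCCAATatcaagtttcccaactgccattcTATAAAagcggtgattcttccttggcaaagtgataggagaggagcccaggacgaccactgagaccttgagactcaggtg

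In contrast, 10 of 11 brighter genes of stratified squamous epithelium, the lining of skin and ear canal, were highest on replicate 1, against 18% of the 9096 genes, with a list score of 0.79 there. Krt14 and Krt5, the keratins of its basal layer, measured 8896, 3538, 2083, 2462 and 3299 and 8482, 4325, 3168, 3368 and 5198. Klk7, a protease of the shedding skin surface that is outside the list and was added after its values were seen, measured 4339.6, 1074, 662.6, 1057 and 1080.5. Replicate 1 was the highest array in all 3. The summed signal of the 18 measured squamous genes was 64789, 35483, 34728, 31663 and 36807. The part of the cerebellar, mucosal and squamous genes in other values of replicate 1 was not tested.

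**Figure D4:**
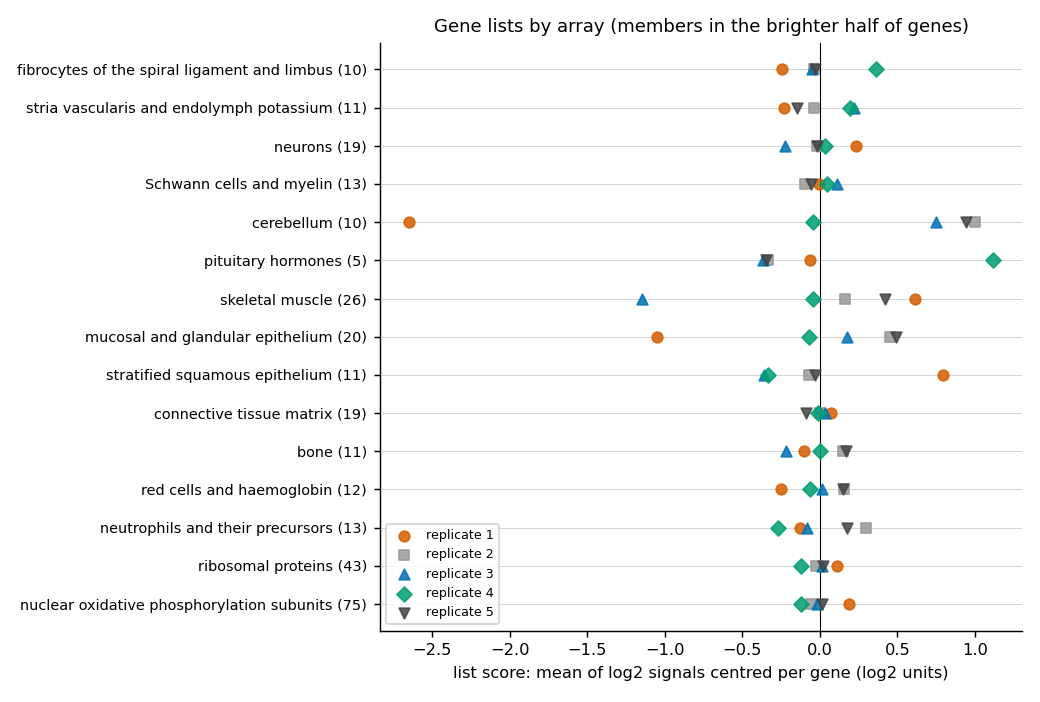
List scores per array for selected gene lists, in log2 units, each the mean over the brighter members (number in parentheses) of log2 signal minus its 5-array mean. Replicate 1 lies at -2.65 in the cerebellar list, -1.05 in the mucosal list and 0.79 in the squamous list, replicate 3 at -1.15 in the muscle list, and replicate 4 at 1.12 in the pituitary list.

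Among the lists, replicate 3 differed most in that of skeletal muscle. Of 26 brighter members of the skeletal muscle list 25 were lowest on replicate 3, against 28.2% of the 9096 genes, and 13 by over 2-fold, against 2.58%. Only 2 of the 13 had a second probe set in the brighter range. In that set replicate 3 was lowest for both, and by over 2-fold for 1, against 8.51% of all genes with a second probe set. Replicate 1 was the highest array in 19 of the 26, against 18%. Ckm, the muscle creatine kinase, measured 58037, 38972, 6145, 41882 and 47344. Tnnt3, the fast troponin T, measured 42971, 27929, 3956, 22042 and 32809. Tcap, a cap protein of the sarcomere's Z disc, measured 26669, 14506, 3052, 13258 and 18153. In each, replicate 3 was lowest and replicate 1 highest. Acta1, skeletal alpha-actin, measured 63070.5, 53572, 25842, 49437 and 62815, and Tnnc2, the fast troponin C, measured 66834, 49524, 31469, 42495 and 60413. Myh1 measured 63187, 48625, 39305, 54958 and 58548, with replicate 3 lowest but within 1.61-fold of the highest. The summed signal of the 32 measured muscle genes was 829638, 598285, 282984, 548037 and 712850.3. The promoter of Myh1, the brightest gene of the list, is shown because it carries a TATAAA that begins 32 bases before the start.
Myh1, chr11:67199852-67200151, plus strand: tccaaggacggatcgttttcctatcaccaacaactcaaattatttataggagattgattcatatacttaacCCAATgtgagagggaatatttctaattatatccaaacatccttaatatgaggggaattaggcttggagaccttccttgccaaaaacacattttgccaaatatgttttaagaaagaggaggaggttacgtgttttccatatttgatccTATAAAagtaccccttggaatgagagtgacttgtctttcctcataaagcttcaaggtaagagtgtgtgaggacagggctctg

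The low values of replicate 3 were not limited to muscle, and other probe sets of the same gene did not always share them. Of its 235 low genes, 13 were in the muscle list and 29 (12.3%) in any of the 41 lists, which hold 5.71% of the 9096 genes. Apoe, a lipid carrier of glia and macrophages, measured 52702, 44737, 7629, 38803 and 54215. Gap43, a growth cone protein, measured 5487, 3374, 678.2, 3497 and 4282. Fdps, an enzyme of cholesterol synthesis, measured 10439, 5454, 997.7, 6372 and 6443. Replicate 3 lay far below the others in all 3. Of the 14 measured glycolysis genes 10 were lowest on replicate 3, against 28.2% of the 9096 genes, and 5 of them by over 2-fold, against 2.58%. Aldoa, which muscle and most other tissues make, was among these 5, so this count is not separate from that of muscle. In the brightest 5% were 11 of the 14. Second probe sets in the brighter range were available for 58 of the 235: 40 had replicate 3 lowest as well (69%, against 39.1% of all 3021 genes with a second probe set) and 19 by over 2-fold (32.8%, against 8.51%). For replicate 1, 14 of 65 had one, of which 13 agreed on the lowest array (92.9%, against 15.1%) and 10 by over 2-fold (71.4%, against 0.497%).

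Individual genes show how probe sets of the same gene parted on replicate 3. For Tpm1, the tropomyosin of muscle and other cells, the brightest probe set read 31247, 22229, 2097, 15897 and 22283, and the next 6070.3, 6828, 4437, 5851 and 8204. The brightest probe set of Mbp had its highest value on replicate 3, but its sixth brightest read 15618, 15721, 1561, 17803 and 20049. Of the 5 probe sets of Aldoa, the glycolytic aldolase of muscle and most tissues, the 4 brightest were lowest on replicate 3 and the dimmest was highest there, at 14471, 12447, 16836, 13961 and 12953. In the other direction, Sod1, the cytosolic superoxide dismutase, measured 12533, 13459, 32031, 9759 and 11832, and its second probe set measured 11438, 10960.4, 30091, 8192 and 10142. The cause of these disagreements was not tested.

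**Figure D5:**
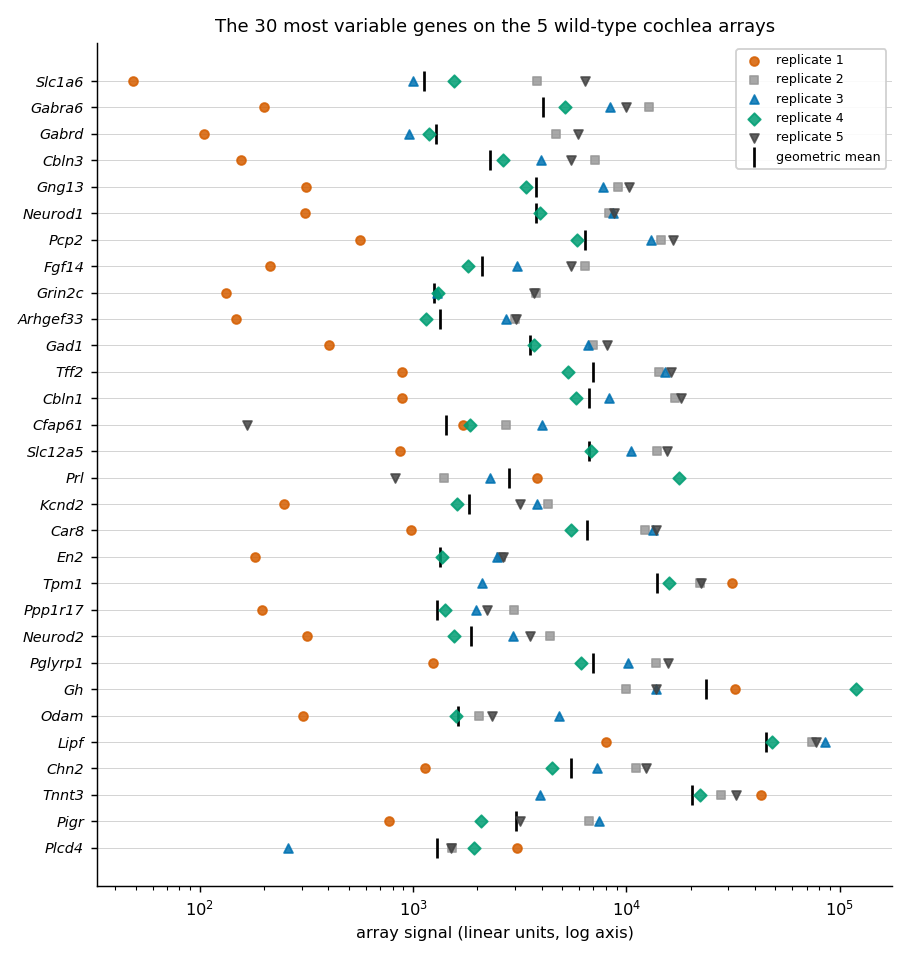
Signals of the 30 genes with the largest SD of log2 signal among the 9096 brighter genes, in linear units on a log axis, 1 marker per array. Replicate 1 is the lowest marker in 24 of the 30 and replicate 3 in 3, and replicate 4 stands to the right for Gh (119817) and Prl (17724).

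Replicate 4 stood apart in hormone genes of the pituitary. Gh, growth hormone, measured 32422, 9952, 13709, 119817 and 13841. All 4 probe sets of Gh were highest on replicate 4, and replicate 1 came second in each. Prl, prolactin, measured 3794, 1394, 2299, 17724 and 820.2. Cga, the subunit shared by the glycoprotein hormones, measured 498.0, 69.9, 96.0, 10906 and 38.8, and replicate 4 was again the highest array. The other subunit genes of those hormones were dim: Lhb measured 489.3, 421.8, 516.5, 1676 and 579.6, Tshb 353.3, 450.5, 274.6, 1023 and 252.7 and Fshb 216.2, 51.3, 39.6, 569.8 and 53.6. In total, replicate 4 was the highest array for 7 of the 9 measured genes of a list of pituitary hormones and granule proteins, against 18.6% of all 18193 genes. The list was written after these values had been seen, so nothing is read from this count. Their summed signal was 51586, 36339.7, 36297, 173687 and 42004. The promoter of Prl is shown because 6 of the 8 genes of this list with a promoter window carried a TATAAA at that distance, in Prl at 24 bases before the start.
Prl, chr13:27057320-27057619, plus strand: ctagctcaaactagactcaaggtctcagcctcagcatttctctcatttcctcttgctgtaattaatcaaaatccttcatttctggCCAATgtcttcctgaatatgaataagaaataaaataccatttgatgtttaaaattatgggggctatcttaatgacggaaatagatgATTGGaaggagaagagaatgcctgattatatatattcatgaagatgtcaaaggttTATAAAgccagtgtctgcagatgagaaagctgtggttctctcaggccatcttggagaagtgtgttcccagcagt

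The same letters were counted in the promoters of all genes. TATAAA lying 40 to 16 bases before the start, on the gene's strand, was found for 367 of 14452 genes with a promoter window (2.54%), using the first listed window of each gene, and for 94 of 7386 brighter genes (1.27%). Of the 100 brightest genes 75 had a window and 5 carried it (6.67%): Bpifa1, Wfdc18, Myh1, Igfbp4 and Ckb. None of 41 ribosomal protein genes and none of 66 nuclear oxidative phosphorylation genes had it. It was found for 4 of 17 mucosal genes (23.5%), 3 of 26 muscle genes (11.5%) and none of 7 cerebellar genes. CCAAT on either strand was found in 38.2% of all windows and in 37.3% of those of the 100 brightest genes. A match describes letters in a window and is no evidence of a bound factor, and no match says only that these letters are not in it.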

How the data were processed

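Per the labels' protocols, total RNA from cochlea was isolated with TriZol and converted to biotin-labelled cRNA. The authors deposited an intensity on a linear scale for each probe set. The submitters' processing notes name GCOS 1.3 as the software. How background was corrected, how probes were combined and to what target arrays were scaled is not given in the sources used here. A trimmed mean over probe sets was 1495.5 to 1496.2 on each of the 5 arrays, so the deposited scaling was kept. Probe sets were named through the platform annotation, updated by Entrez ID from RefSeq for 34741 of 34945. Probe sets of several genes (932) or with no name here (9160) were left out. The deposited values were analysed as log2(signal + 16) with Python 3.11.15, numpy 2.4.6, pandas 2.3.3 and matplotlib 3.10.9, and 9010 genes had over 1 probe set. No groups were compared and nothing was tested, and the number of arrays, 5, limits the precision. Detection calls were not used. The computation of spread was checked on simulated data.

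Genes named in the text were the 30 brightest, the 30 with the largest SD, up to 3 brightest and 3 most variable members of each of 41 lists written for these tissues, the 4 markers and Polg, and the 10 steadiest of the 1000 brightest, from which those needed were taken. Slc26a4, Pou4f3, Slc26a5, Cga, Tshb, Lhb, Fshb, Fdps, Klk7 and Xist were added after their values were seen. The members and lists were chosen with earlier results of these data known. The pituitary list, the single-array rule and leaving out replicates 1 and 3 together were chosen after seeing the data.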

Additional observations from a re-analysis of the deposited data

Results flagged for a closer look

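In all, 146 groups of 5 arrays were checked, among them 104 genes and 39 gene lists. The gap of 1 array to the nearest of the other 4 was taken as a share of the whole range of log2 values. It exceeded the critical value of 0.71 in 27 groups, which were 24 genes and 3 lists. Chance alone passes this value in about 5% of groups, but many of these genes were chosen for their spread or after their values were seen, so nothing can be read from the share. All values are signals of each gene's brightest probe set unless stated.

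On replicate 1 the low array was seen for Gabra6 (199.7), Cbln3 (155.7), Neurod1 (312.3), Lipf (8034.8) and Fos (1408), and the high array for Klk7 (4339.6). The cerebellar list score of replicate 1 was -2.65 and the squamous list score 0.793, in log2 units.

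Replicate 3 was the low array for the muscle genes Acta1 (25841.9), Ckm (6145), Tnnt3 (3956.1) and Tpm1 (2096.6). It was also the low array for Aldoa (36567.2), Apoe (7629.2), Gap43 (678.2), Fdps (997.7) and Polg (1972.8). It was the high array for Rps29 (111383.7), Rps28 (87851), Cox6a1 (76561) and Sod1 (32031.3).

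Replicate 4 was high for Myo6 (3399.6), for Lhb (1675.7) and for the pituitary list score, at 1.12 in log2 units, and low for Rpl41 (48833.8). Replicate 5 was low for Cfap61 (166.5) and for Eif2s3y (1031.1).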

How the results depend on the processing

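The share of signal held by the 100 brightest genes (10.3%) was 10.3 to 10.5% when 1 replicate was left out in turn, and 13.5% when a gene's probe sets were averaged, which also kept 55 of the 100 brightest and 57 of the 100 most variable genes. The brightest genes moved little otherwise, with 92 to 98 of 100 shared when an array was left out. Measures of spread depended on replicates 1 and 3. The count of spans over 4-fold (173) was 62 to 164 with 1 replicate left out and 8 without replicates 1 and 3. Of the 100 most variable genes 46 to 92 were shared with 1 array left out and 31 without both. Muscle genes in the most variable 5% numbered 3 to 15 and mucosal genes 5 to 12 with 1 array left out, and 2 and 5 without both, when the red cell genes numbered 0. With no filter on dim genes, 2135 spans exceeded 4-fold, 23 of the 100 most variable were shared, and muscle, mucosal and red cell members numbered 7, 6 and 0, while low genes numbered 302 on replicate 1 and 502 on replicate 3. In the brightest 30% these were 106 spans, 61 shared, and 36 and 147 low genes. With the median absolute deviation in place of the SD, 30 were shared, with 5 muscle and 5 mucosal genes. Median centring, quantile normalization and pseudocounts of 1 and 64 kept these counts within 1.5 times. They moved the SD of 5, 9, 0 and 1 of 104 genes that were checked, some of which are not named in the text. The SD of 26 of the 104 moved by over 1.5 times when a gene's probe sets were averaged. Averaging also moved the mean log2 signal of 44 by its SD or more. Leaving out replicates 1 to 5 in turn moved the SD of 26, 6, 29, 12 and 7. No paired analysis was possible because there was 1 group and no test. Dim signals near background have no reliable span.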

Other observations

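The smallest spread was looked for among the 1000 brightest genes. The steadiest of these was Sgk1, a kinase that regulates sodium transport, with signals of 10998, 11049, 10844, 11194 and 10808. Dnaja2, a co-chaperone, measured 15603, 15553, 16205, 15329 and 15675, and Arpc2, a subunit of the actin-nucleating Arp2/3 complex, measured 22011, 20931, 21905, 21324 and 21348. Slc25a3, the mitochondrial phosphate carrier, measured 50977, 49265, 53560.1, 51111 and 53094.

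Blood and marrow lists differed in brightness. Of the neutrophil list 13 of 18 measured genes were among the 9096 brighter than the median gene, and of the red cell list 12 of 17. Of the B and plasma cell list 5 of 14 were, with a median signal of 702, and of the T cell and mast cell lists 1 of 9 each, with medians of 232 and 278. S100a8 and S100a9, calcium-binding proteins of neutrophils, measured 33579.9, 39146, 40055, 24081 and 23129.8 and 34658, 40954, 39754, 21706 and 25176, with replicates 4 and 5 lower than replicates 1 to 3. Slc4a1, the anion exchanger of red cells, measured 15434, 21608, 27341, 16551 and 21906, and Alas2, the haem synthesis enzyme of red cell precursors, measured 8109, 12846, 4142, 9512 and 15950.2. Replicate 3 was highest in Slc4a1 and lowest in Alas2, but the second probe set of Slc4a1 measured 5455, 8757, 6479, 7204 and 10273, with replicate 5 highest as in Alas2. Of the 12 brighter red cell genes 8 were lowest on replicate 1, against 20.1% of the 9096 genes. Cd74, the invariant chain of antigen presentation, measured 9448, 11585, 10690.5, 9413 and 13964, and Mki67, a marker of dividing cells, measured 5714, 10063, 5565, 5405 and 4162, with replicate 2 highest.

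Of 16 brighter genes of the immediate early response, 6 were lowest on replicate 1, 2 on replicate 2, 4 on replicate 3 and 4 on replicate 4. Over the 9096 genes the shares lowest on replicates 1 to 4 were 20.1%, 13.4%, 28.2% and 16%. Fos and Egr1 were among the 6, at 1408, 4257, 3700.4, 3924 and 4650.1 and 3637, 10092, 7285, 8570.2 and 8436. Nr1d2, a clock repressor, measured 9634, 14412, 15818, 14619.9 and 11882. Col1a1, the collagen of bone, measured 15846, 23644, 9570.3, 18299 and 29600.2. Sparc, a bone matrix protein, measured 22924, 41431, 26584, 35844 and 48613. Replicate 5 was highest in both, but not in their second probe sets. That of Col1a1 measured 9799, 8670, 9016, 9755 and 6202, with replicate 5 lowest. That of Sparc measured 24582, 27386, 22794, 29387 and 28152, with replicate 4 highest. Cfap61, a protein of cilia, measured 1719.6, 2715, 4014, 1844 and 166.5, and Odam, a protein of epithelial attachment, 305.8, 2034, 4852, 1590.0 and 2349. The X-inactivation transcript Xist stayed at 451.3 to 1001, below the 9096 brighter genes, and the Y-linked Eif2s3y measured 1031 to 1471 on these arrays from males.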
